A study of Macaca mulatta with 7 samples.

Results

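Adrenergic receptors are the cell-surface receptors for noradrenaline and adrenaline, and 6 of their genes were followed here by nuclear RNA in rhesus monkey spinal cord below a complete thoracic injury. They were the alpha-1 receptors ADRA1A, ADRA1B and ADRA1D, the alpha-2 receptors ADRA2A and ADRA2C and the beta receptor ADRB1, taken by gene symbol from the 28966 symbols or identifiers of the deposited matrices, in which each of the 6 belonged to 1 identifier. All 6 had at least 1 UMI (unique molecular identifier, 1 counted RNA molecule), and all 6 were measured in every major cell class. ADRA1A in oligodendrocyte precursor cells (OPCs) is described in most detail.

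The study asked how cells near and far from a complete spinal cord injury (SCI) differ over time. Single nuclei from adult female Macaca mulatta were sequenced with 10x 3' chemistry, in 7 libraries with 1 library per group. The untreated groups, at 0 days post-injury (dpi), were cervical, thoracic and lumbar cord at 5 years of age. The other 4 groups were lumbar cord, far below a removed piece of thoracic cord, at 7 dpi (7 years of age), 14 dpi (7 years), 30 dpi (6 years) and 6 months post-injury (mpi, 6 years). The methods give 1 uninjured cord as the source of the 3 intact segments and a different animal for each injured time, so that animal, age, preparation and time since injury cannot be told apart. With 1 library per group no difference could be tested. Levels are UMIs per 1000000 UMIs of the same class and library (CPM), and intervals are 95% intervals that cover counting error only.

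The libraries held 6134 to 12015 barcodes and 45079131 to 150987900 UMIs, with the fewest of both at 6 mpi. After filtering and removal of doublets, 63730 nuclei remained, from 5637 to 11002 per library, with a median of 3191 UMIs per nucleus at 6 mpi and up to 7355 at 30 dpi. Among the kept nuclei, 396 barcode sequences were found in more than 1 library. Clusters were named from marker genes and are called "X-like". There were 22263 oligodendrocyte-like, 19242 microglia/macrophage-like, 9915 neuron-like, 4026 OPC-like, 3901 astrocyte-like, 617 ependymal-like and 495 T cell-like nuclei, and 3271 nuclei in 6 clusters stayed unnamed. The unnamed share was 0.943% at 7 dpi and 24.6% at 6 mpi, where 1200 nuclei lay in 1 cluster led by GPNMB and CHIT1. Intact libraries had 686 to 1432 OPC-like and 880 to 1446 astrocyte-like nuclei, and injured libraries 220 to 368 and 97 to 249, so injured levels in these 2 classes rest on fewer nuclei.

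Noradrenaline reaches the lumbar cord mainly through axons that descend from brainstem nuclei such as the locus coeruleus, and a complete thoracic injury cuts these axons. Alpha-1 receptors couple to Gq and phospholipase C and raise intracellular calcium, alpha-2 receptors couple to Gi/o, lower cyclic AMP and dampen transmitter release, and beta receptors couple to Gs and raise cyclic AMP. In the cord, noradrenaline changes the excitability of dorsal horn and motor circuits, and astrocytes and microglia also carry adrenergic receptors.

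The gene models of the Mmul_10 assembly (RefSeq annotation) differ in ways that bear on nuclear RNA, which includes unspliced transcripts. ADRA1A lies on chromosome 8 from 27023459 to 27137314 on the minus strand, ADRA1B on chromosome 6 from 157303026 to 157359808 and ADRA1D on chromosome 10 from 62220050 to 62249346, both on the plus strand, and all 3 carry introns. ADRA2A (chromosome 9, 111636338 to 111640279), ADRA2C (chromosome 5, 3920308 to 3922469) and ADRB1 (chromosome 9, 114572016 to 114574907) are single-exon genes on the plus strand. Where intronic reads are counted, a long gene offers more unspliced sequence to count than a short one. Whether they were counted is not known here, and these models may differ from those used for counting. Levels are therefore compared within a gene and not between genes. Genes on the opposite strand, LOC100428242 and LOC114680209, overlap ADRA1A, and LOC114678957 and LOC106999017 overlap ADRA1B.

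The receptors differed in where their UMIs lay. ADRA1A gave 46412 UMIs in 9871 nuclei, 63.0% of them in neuron-like nuclei, with most of the rest in OPC-like and astrocyte-like nuclei. ADRA1B gave 9666 UMIs, 92.4% of them neuron-like, and ADRA1D gave 869, 75.5% of them neuron-like. ADRB1 gave 3596 UMIs in 3110 nuclei, and 68.1% of them came from microglia/macrophage-like nuclei. The alpha-2 receptors were close to undetected, with 16 UMIs of ADRA2A and 20 UMIs of ADRA2C over all 63730 nuclei. The T cell-like nuclei held 10 UMIs of ADRA1A, 7 of ADRB1 and none of ADRA1B or ADRA1D.

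**Figure D1:**
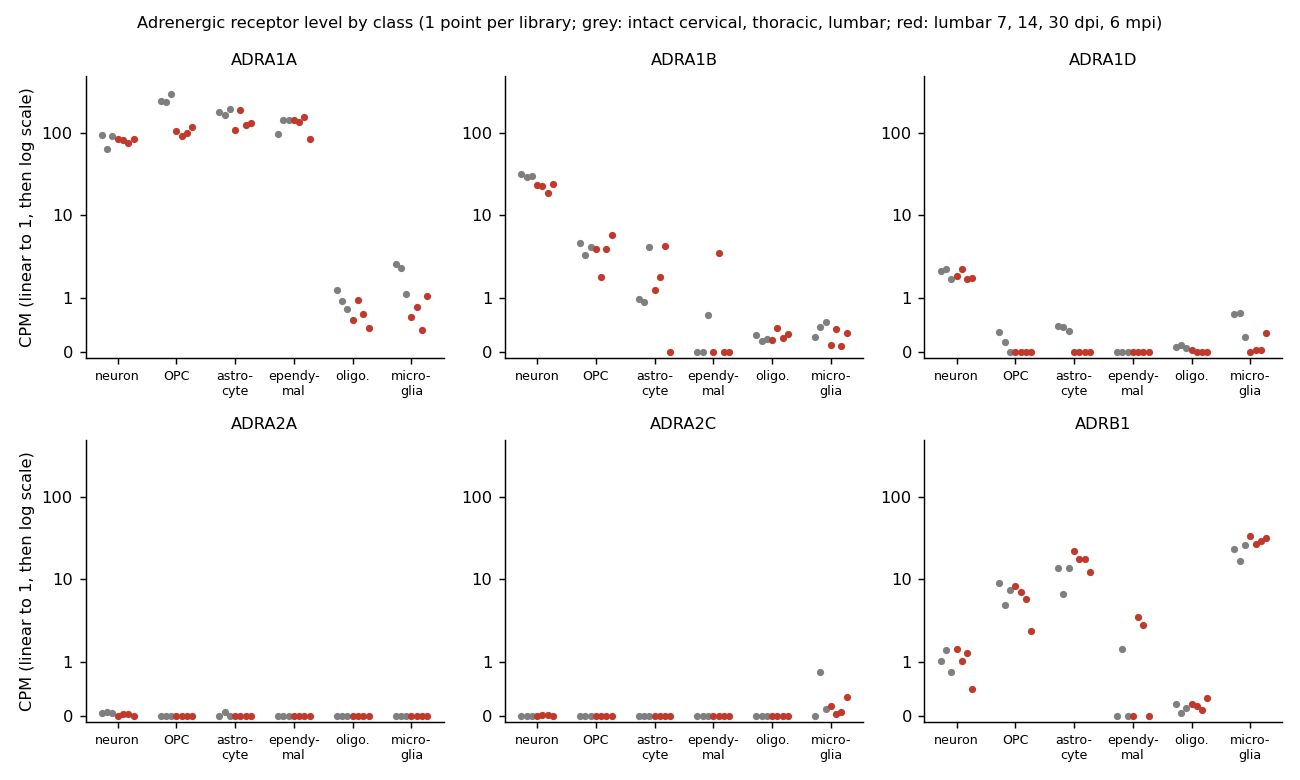
Level of the 6 receptors in CPM (vertical axis, linear up to 1 and logarithmic above) in 6 classes, with 1 point per library, intact in grey and injured lumbar in red. ADRA1A lies between 64.0 and 301 in neuron-like, OPC-like, astrocyte-like and ependymal-like nuclei, ADRA1B is highest in neuron-like nuclei, ADRB1 is highest in microglia/macrophage-like nuclei, and ADRA2A and ADRA2C lie near 0.

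In OPC-like nuclei ADRA1A lay well below its intact level at every time after injury. Its level was 248 CPM in intact cervical (235 to 262), 240.0 in intact thoracic (231 to 249) and 301 in intact lumbar cord (285 to 317). After injury it was 107 CPM (93.8 to 121) for the 7 dpi library and 93.4 CPM (79.4 to 109) for the 14 dpi library. The 30 dpi library held 101 CPM (91.3 to 112), and that of 6 mpi held 120.0 CPM (97.9 to 145). All 4 injured libraries lay below all 3 intact ones, and no counting interval of an injured library reached that of an intact one. The level was already low at 7 dpi, and the intervals of the 4 injured libraries overlapped one another. These levels rest on 1310, 2663 and 1443 UMIs in the intact libraries and on 244, 159, 366 and 103 UMIs in the injured ones.

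Against intact lumbar cord, the log2 ratio of ADRA1A in OPC-like nuclei was −1.49 (−1.69 to −1.30), −1.69 (−1.93 to −1.45), −1.57 (−1.74 to −1.40) and −1.33 (−1.63 to −1.04) for 7, 14 and 30 dpi and 6 mpi. The intact lumbar level was therefore 2.51 to 3.22 times the injured ones, and the median of the 3 intact libraries was 2.38 times the median of the 4 injured libraries. The difference within the intact cord was smaller, with lumbar the highest segment and cervical and thoracic overlapping in their intervals. How much adult animals differ in this level could not be measured, since the intact libraries came from 1 cord.

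**Figure D2:**
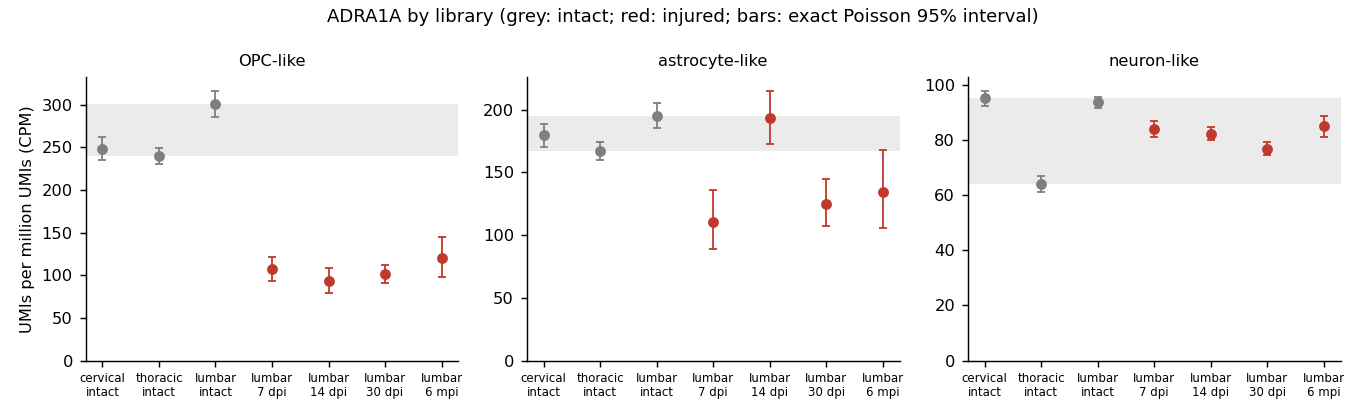
ADRA1A level in CPM (vertical axis, from 0) by library in OPC-like, astrocyte-like and neuron-like nuclei, intact in grey and injured lumbar in red, with exact Poisson 95% intervals and a grey band over the intact range. In OPC-like nuclei the 4 injured libraries (93.4 to 120.0) lie below the band (240.0 to 301), while in the other classes at least 1 injured library lies within it.

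The share of OPC-like nuclei with a UMI of ADRA1A followed the same split. It was 64.6%, 59.5% and 64.7% in the intact segments (cervical, thoracic, lumbar) and 34.8%, 32.9%, 42.7% and 27.3% at 7, 14 and 30 dpi and 6 mpi, at median depths of 5885 to 7127 UMIs per nucleus in intact and 3676.5 to 8638 in injured libraries. With each nucleus thinned to 1000 UMIs the shares were 19.8% (16.9 to 23.0), 18.6% (16.6 to 20.7) and 23.7% (20.7 to 26.9) in the intact segments. They were 8.42% (5.80 to 11.7), 10.5% (6.94 to 15.2), 7.85% (5.24 to 11.2) and 11.4% (7.49 to 16.3) after injury, with exact Clopper-Pearson intervals and no nucleus too shallow to thin. The thinned shares again did not overlap between intact and injured libraries. Microglia/macrophage-like nuclei, which held almost no ADRA1A, had a thinned share of 0.0904% to 0.280% at median depths of 2341 to 5830 UMIs.

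The median OPC-like nucleus had 168, 145 and 211 CPM of ADRA1A in the intact segments and 0 in each of the 4 injured libraries. The 10 nuclei with the most ADRA1A UMIs gave 7.94%, 5.90% and 8.73% of them in the intact segments and 23.4%, 33.3%, 20.2% and 34.0% after injury. Since 10 nuclei are a larger part of the fewer OPC-like nuclei of the injured libraries, these shares do not show a more uneven spread after injury. All OPC-like nuclei fell in a single cluster at the clustering resolution used. The study's own subclustering separated homeostatic, activated and dividing OPCs, and found activated and dividing ones in the spared lumbar cord too. It reported that activated OPCs emerged after injury and had lower levels of homeostatic genes. Homeostatic and activated OPCs were not separated here, and the part of their mix in the ADRA1A result was not tested.

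Of the 3 receptors with at least 50 UMIs in OPC-like nuclei, ADRA1A was the 1 that lay below the intact range, and none lay above it. Over all 12798 genes with that many UMIs, 6.63% lay below and 8.3% above. By the median over the injured libraries of log2(CPM + 1) minus intact lumbar, ADRA1A stood at −1.52, and 64 of the 12798 genes (0.50%) stood lower. ADRA1B stood at −0.07, with 33.9% of the genes lower, and ADRB1 at −0.20, with 22.2% lower, where the median of log2 ratios over all genes was 0.06.

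**Figure D3:**
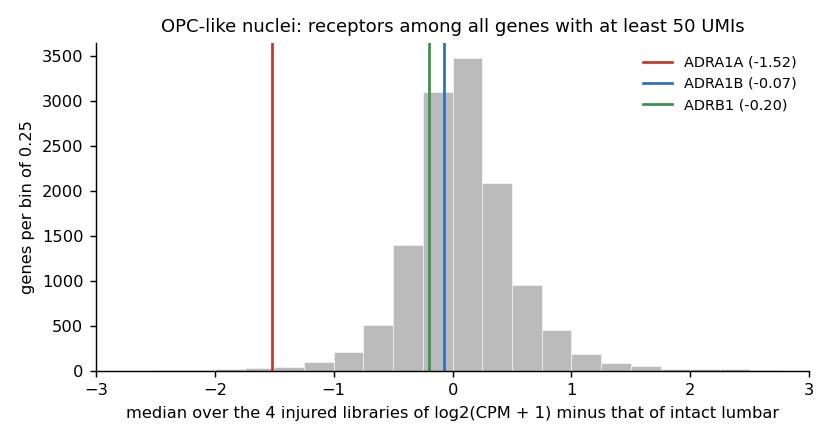
Number of genes (vertical axis) by the median over the 4 injured libraries of log2(CPM + 1) minus that of intact lumbar cord (horizontal axis, bins of 0.25) in OPC-like nuclei, over the 12798 genes with at least 50 UMIs. Vertical lines mark ADRA1A at −1.52, in the lower tail, and ADRA1B (−0.07) and ADRB1 (−0.20) within the bulk of the genes.

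The defining OPC markers did not share this gap, though the OPC-like nuclei were named from these same markers, which favours a steady level. Their summed level was 20159 to 22134 CPM in intact and 19713 to 25289 in injured libraries. PDGFRA, the platelet-derived growth factor receptor that marks precursors, overlapped between the groups (871 to 973 CPM intact, 786 to 969 injured), as did PCDH15, TNR, LHFPL3 and MEGF11. The proteoglycan genes moved apart, with VCAN below the intact range (3406 to 3639 intact, 2359 to 3204 injured) and CSPG4 above it (27.7 to 28.8 intact, 32.0 to 39.4 injured). Dividing nuclei were few. Nuclei with a UMI of MKI67 or TOP2A, genes of proliferating cells, made up 0.437% to 1.26% of OPC-like nuclei in intact libraries and 7.88%, 0.422%, 2.33% and 0.455% at 7, 14 and 30 dpi and 6 mpi. Without them ADRA1A stood at 240.5 to 301 CPM in intact and 94.0 to 119 CPM in injured libraries.

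Marker genes of other classes shifted in part in OPC-like nuclei. The 9 microglia/macrophage markers summed to 51.3 to 52.7 CPM in intact and 88.5 to 120 CPM in injured libraries, with 6 of 9 above the intact range and none at 0 throughout. The 7 oligodendrocyte markers found summed to 286 to 924 CPM intact and 270 to 1493 injured, and the 9 neuron markers to 2471 to 2682 and 1993 to 2580, with GAD1 above and SYT1 below. The 8 astrocyte markers summed to 1089.6 to 1179 CPM intact and 962 to 1626 injured, with GFAP above the intact range. The study reported that OPCs themselves raised GFAP after injury, at a lower level in the spared lumbar cord. GFAP here therefore does not mark astrocyte RNA alone. The part of RNA of other classes in the ADRA1A result was not tested. Neuron markers in OPC-like nuclei reached, at their median, 1.90% to 5.76% of their level in neuron-like nuclei of the same library, and the highest of the 9 reached 112% to 155%. ADRA1A in OPC-like nuclei reached 261% to 375% of its neuron-like level in intact and 114% to 141% in injured libraries.

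ADRA1A in astrocyte-like nuclei of intact cord lay between its OPC-like and neuron-like levels, and it varied more among injured libraries than in OPC-like nuclei. It was 179 CPM in intact cervical (170 to 189), 167 in thoracic (160.1 to 174) and 195 in lumbar cord (185 to 205). In the injured libraries it was 111 (88.8 to 136), 193 (173 to 215), 125 (107 to 144) and 134 (106 to 168), from 7 dpi through 6 mpi. Of the 4 injured libraries, 3 lay under the intact range, but the 14 dpi library lay within it, so the groups overlapped. Relative to intact lumbar cord, log2 ratios were −0.82 (−1.14 to −0.51), −0.01 (−0.19 to 0.16), −0.64 (−0.88 to −0.42) and −0.54 (−0.89 to −0.21), time by time. With nuclei thinned to 1000 UMIs before summing, the 4 injured libraries (81.8 to 157 CPM) lay below the intact ones (168 to 174), so the overlap was not seen with thinning.

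Astrocyte-like nuclei formed 2 clusters. In cluster 13, ADRA1A was 207 to 259 CPM in intact libraries and 131, 205, 210.5 and 154 CPM at 7, 14 and 30 dpi and 6 mpi. In cluster 11 it was 107 to 157 CPM intact and 94.3, 172, 77.2 and 71.9 CPM after injury. Cluster 13 was the higher in 7 of 7 libraries, and it held 479 of 976 astrocyte-like nuclei in intact lumbar cord, 38 of 97 at 7 dpi, 155 of 249 at 14 dpi, 47 of 143 at 30 dpi and 79 of 110 at 6 mpi. The mix of the clusters differed between libraries, with the largest share of cluster 13 at 6 mpi, and its part in the pooled levels was not tested. GFAP, the astrocyte filament gene, was 946 to 1555 CPM in intact and 2795 to 4971 CPM in injured astrocyte-like nuclei.

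In neuron-like nuclei ADRA1A stayed close to its intact level. It was 95 CPM in intact cervical (92.3 to 97.8), 64.0 in thoracic (61.1 to 67.0) and 93.6 in lumbar cord (91.6 to 95.6). It was 83.9 (81.0 to 87.0), 82.1 (79.8 to 84.5), 76.8 (74.6 to 79.1) and 84.8 (81.1 to 88.8) at 7, 14 and 30 dpi and 6 mpi. All 4 injured libraries lay under intact lumbar and cervical cord and over intact thoracic cord, and without the thoracic library ADRA1A would lie below the intact range. As log2 ratios over intact lumbar cord these were −0.16, −0.19, −0.28 and −0.14, with all 4 counting intervals below 0 but smaller than the gap between the intact thoracic and lumbar segments. The mix of neuron groups, given below, also differed between libraries, and its part in these levels was not tested.

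Of the remaining classes, ependymal-like nuclei carried ADRA1A, oligodendrocyte-like and microglia/macrophage-like nuclei held very little, and T cell-like nuclei held too few UMIs (0 to 6 per library) for a level. Ependymal-like nuclei held 98.5 to 146 CPM in intact and 85.7 to 159 CPM in injured libraries, the lowest value resting on 6 nuclei and 2 UMIs at 6 mpi. Oligodendrocyte-like nuclei held 0.787 to 1.22 CPM intact and 0.448 to 0.962 CPM injured. Microglia/macrophage-like nuclei held 2.54, 2.26 and 1.09 CPM intact and 0.637, 0.818, 0.400 and 1.06 CPM injured, from 91 UMIs in all. In the last class the injured libraries lay below the intact ones, yet the interval of each ratio to intact lumbar cord included no difference. ADRA1A in it was 0.521% to 3.53% of the neuron-like level, while neuron markers reached a median of 1.04% to 3.86% of theirs, and ADRA1A was above that median in 2 of 7 libraries. It was 0.363% to 1.02% of the OPC-like level, above the median of the OPC markers (0.159% to 0.453%) in 7 of 7 libraries, and 0.321% to 1.42% of the astrocyte-like level, above the median of the astrocyte markers in 0 of 7. How much of this low level comes from RNA of other classes was not tested.

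Across classes, ADRA1A was ordered OPC-like over astrocyte-like over neuron-like in each of the 3 intact libraries, with no overlap of intervals. After injury OPC-like nuclei lay below astrocyte-like ones in all 4 libraries, at 48.4% to 96.6% of their level against 138% to 154% in intact cord. The intervals of both classes overlapped at 7 and 30 dpi and 6 mpi and were apart at 14 dpi. OPC-like and neuron-like intervals overlapped at 14 dpi and were apart at the other 3 times.

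ADRA1B was a receptor of neuron-like nuclei, and its level there lay below the intact range after injury. It was 31.6 CPM in intact cervical (30.0 to 33.2), 29.2 in thoracic (27.3 to 31.3) and 30.0 in lumbar cord (28.9 to 31.1). It was 23.6 (22.0 to 25.2), 22.8 (21.6 to 24.1), 18.9 (17.8 to 20.1) and 23.8 (21.8 to 25.9) at 7, 14 and 30 dpi and 6 mpi. The 3 intact segments were alike within their intervals, and the injured libraries lay apart from them, lowest at 30 dpi. On the log2 scale and over intact lumbar cord, ratios were −0.35 (−0.46 to −0.24), −0.39 (−0.49 to −0.30), −0.67 (−0.77 to −0.56) and −0.34 (−0.47 to −0.20).

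Of the 4 receptors with at least 50 UMIs in neuron-like nuclei, ADRA1B lay below the intact range and none lay above it, where 10.5% of 19376 genes lay below and 9.6% above. Its median log2(CPM + 1) difference, −0.36, was undercut by 6.78% of the genes. With every nucleus thinned to 1000 UMIs before summing, ADRA1B overlapped between intact (21.3 to 27.4 CPM) and injured libraries (15 to 26.9 CPM), and its log2 ratio at 7 dpi turned to 0.34. Thinning weights nuclei equally and also discards most of the counts, and the cause of the shift was not tested. The 9 neuron markers also summed to less after injury, 4399 to 4684 CPM against 4928 to 5087, with GAD2 and GRIN1 below the intact range, and the 9 microglia/macrophage markers to more, 106 to 151 CPM against 72.5 to 101, and the part of both in the ADRA1B result was not tested.

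Outside neuron-like nuclei ADRA1B was low. OPC-like nuclei held 3.33 to 4.55 CPM in intact and 1.76 to 5.82 CPM in injured libraries, from 112 UMIs. Astrocyte-like nuclei held 0.927 to 4.08 CPM in intact libraries and up to 4.20 CPM after injury, with 0 UMIs at 6 mpi, where a count of 0 allows up to 5.29 CPM. The OPC-like level was 7.72% to 24.5% of the neuron-like one, above the median for neuron markers in 7 of 7 libraries. Oligodendrocyte-like nuclei held 0.206 to 0.317 CPM in intact and 0.227 to 0.449 CPM in injured libraries. Microglia/macrophage-like nuclei held 0.282 to 0.546 and 0.120 to 0.433 CPM.

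Among neuron-like nuclei with a transmitter name, ADRA1A and ADRA1B were higher in inhibitory-like than in excitatory-like ones in all 7 libraries. ADRA1A in inhibitory-like nuclei of the cervical, thoracic and lumbar intact segments was 109, 88.2 and 110 CPM, and it was 90.7, 99.3, 82.7 and 107 CPM at 7, 14 and 30 dpi and 6 mpi. In excitatory-like nuclei it was 21.8, 14.1 and 23.2 CPM intact and 12.5, 23.3, 19.7 and 23.3 CPM after injury. The fold of inhibitory-like over excitatory-like was 4.21 to 7.26 over the 7 libraries, with every counting interval above 1, and neither group was separated from its intact range after injury. The neurons, with 318 to 1296 inhibitory-like and 346 to 961 excitatory-like nuclei per library, were clustered without the transmitter genes and named from them, and between 10.7% and 23.0% of the neuron-like nuclei of a library stayed without a transmitter name. The fold leaves these unnamed nuclei out, which held 105 to 143 CPM of ADRA1A in intact and 117 to 130 CPM in injured libraries. Of the nuclei with a transmitter name, 54.6%, 49.7% and 57.2% were inhibitory-like in the intact segments. The shares were 56.3%, 52.9%, 54.0% and 45.7% after injury. The part of this mix in the ADRA1A and ADRA1B levels over all neuron-like nuclei was not tested. Unnamed sub-clusters of 961 and 134 nuclei scored highest for excitatory markers but had too few detected. They held 118 and 172 CPM of ADRA1A and 35.6 and 54.5 CPM of ADRA1B. The other unnamed sub-clusters scored highest for inhibitory markers, at 52.2 to 199 CPM of ADRA1A.

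The fold was smaller when nuclei were sorted by their own transmitter genes (SLC17A6, the vesicular glutamate transporter, against GAD1, GAD2, SLC32A1 and SLC6A5, genes of GABA and glycine neurons). ADRA1A was then 1.21 to 2.42 times as high in inhibitory nuclei and ADRA1B 1.08 to 1.43 times. The direction was the same in 7 of 7 libraries for ADRA1A and ADRA1B by either way of grouping, but for ADRA1B by the nuclei's own genes the interval reached 1 at 30 dpi, with a fold of 1.08 (0.950 to 1.23).

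ADRA1B in inhibitory-like nuclei was 34.0, 31.6 and 33.4 CPM in the intact segments and 26.5, 24.5, 19.7 and 26.6 CPM after injury, all 4 below the intact range. In excitatory-like nuclei it was 13.5, 14.2 and 15.5 CPM intact and 11.0, 14.3, 14.2 and 15.2 CPM after injury, which overlapped. This overlap depended on the grouping, since excitatory nuclei picked by their own transmitter genes held 23.1 to 26.8 CPM of ADRA1B intact and 18.8 to 21.5 CPM after injury, with all 4 injured libraries below. The fold of inhibitory-like over excitatory-like was 2.51, 2.22 and 2.15 in the intact segments and 2.41, 1.71, 1.39 and 1.74 after injury, and the difference between the groups in their change was not tested. Neuron-like nuclei without a transmitter name, among them the sub-clusters led by immune and oligodendrocyte genes, also lay below, with 44.6, 50.2 and 37.0 CPM intact and 28.6, 29.4, 21.7 and 30.4 CPM after injury. The share of all genes below was not counted in these sub-groups of neurons, and over all neuron-like nuclei it was 10.5%.

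**Figure D4:**
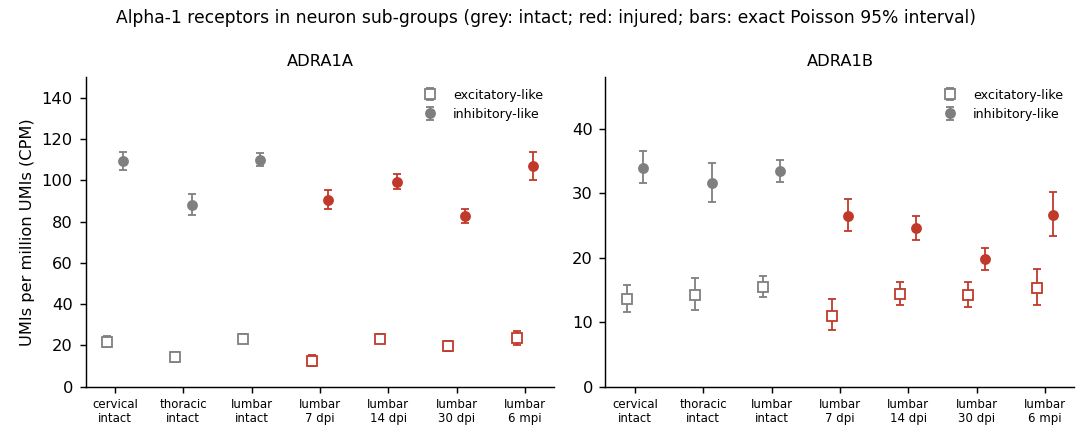
ADRA1A (left) and ADRA1B (right) in CPM (vertical axes, from 0) by library in inhibitory-like (filled) and excitatory-like (open) neurons, intact in grey and injured lumbar in red, with exact Poisson 95% intervals. Inhibitory-like values exceed excitatory-like ones in all 7 libraries for both genes, and ADRA1B in inhibitory-like neurons is 31.6 to 34.0 in intact and 19.7 to 26.6 in injured libraries.

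Within the neuron-like nuclei, 35 sub-clusters differed widely in ADRA1A and ADRA1B. The unnamed ones included a sub-cluster of 94 nuclei led by genes that included the immune genes SRGN, LYN and PTPRC and one of 165 nuclei led by genes that included the oligodendrocyte genes MBP and ST18. ADRA1A, pooled over the libraries, ranged from 1.10 to 199 CPM, with a median of 77.3 over 14 inhibitory-like, 10.0 over 13 excitatory-like and 118 over 7 unnamed sub-clusters. ADRA1B ranged from 0.530 to 54.5 CPM, with medians of 18.7, 8.91 and 30.5 in that order. ADRA1A was lower in pooled injured than in pooled intact nuclei in 23 of 35 sub-clusters and ADRA1B in 25 of 35, which comprised 11 of 14 inhibitory-like, 6 of 13 excitatory-like and 7 of 7 unnamed ones and the 1 cholinergic-like sub-cluster of 33 nuclei. Sub-clusters share their libraries and are not replicates.

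ADRA1D, the third alpha-1 receptor, was a low neuronal transcript whose level over all neuron-like nuclei overlapped between the groups. It was 2.09, 2.24 and 1.70 CPM in neuron-like nuclei of the intact segments and 1.85, 2.21, 1.70 and 1.75 CPM after injury, from 656 UMIs. In inhibitory-like neurons it was 1.57 to 1.80 CPM intact and 1.87 to 2.36 CPM injured, from 295 UMIs, so that all 4 injured libraries lay above the intact ones, while all 4 intervals of the ratio to intact lumbar cord included no difference. The share of all genes above was not counted in this sub-group, and over all neuron-like nuclei it was 9.6%. In inhibitory nuclei picked by their own transmitter genes the groups overlapped, at 1.75 to 1.86 CPM intact and 1.53 to 2.23 CPM injured. The fold of inhibitory-like over excitatory-like was 0.750 to 2.97, with the interval above 1 in 3 of 7 libraries, and 0.599 to 1.34 by the nuclei's own transmitter genes. No other named class had more than 18 UMIs of ADRA1D, while a small unnamed cluster of 86 nuclei, described next, held 154 of the 869.

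In intact cord a small unnamed cluster, singled out after its values were seen, held more ADRA1A per UMI counted than any named class. Its 86 nuclei had a median of 115034 UMIs, and 82 of them held CHAT, 86 SLC5A7 and 84 PRPH, genes of acetylcholine synthesis, choline uptake and peripherally projecting neurons. Schwann cell markers, above all PMP22, kept it from a name. ADRA1A in it was 360 CPM in intact cervical (17 nuclei), 433 in thoracic (6 nuclei) and 434 in lumbar cord (23 nuclei). It was 168, 254, 67.5 and 106 CPM at 7, 14 and 30 dpi and 6 mpi, from 13, 13, 6 and 8 nuclei. The injured libraries lay below the intact ones, but 1 nucleus gave 19.6% to 55.9% of the ADRA1A UMIs of its library. ADRA1B in the same cluster was 36.6, 15.8 and 35.6 CPM intact and 62.2, 37.3, 40.0 and 75.7 CPM injured, in the opposite order. These ADRA1B levels rest on 443 UMIs, and 14 dpi (37.3 CPM) and intact cervical cord (36.6 CPM) were nearly equal. The share of all genes outside the intact range was not counted in this cluster. ADRA1D in it was 15.6, 11.55 and 18.0 CPM intact and 13.1, 7.85, 20.6 and 13.4 CPM injured, which overlapped, and each value was above those of the neuron-like nuclei.

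The alpha-2 receptors could not be compared at this depth. ADRA2A, the main alpha-2 autoreceptor and a target of clonidine, had 3, 2 and 6 UMIs in neuron-like nuclei of the intact segments (cervical, thoracic, lumbar) and 0, 2, 2 and 0 after injury. At 7 dpi and 6 mpi a count of 0 allows up to 0.0829 and 0.134 CPM, above the 0.0655 CPM found in intact lumbar cord. ADRA2C, another Gi/o-coupled receptor, had 0, 9 and 1 UMIs in microglia/macrophage-like nuclei of the intact segments and 3, 1, 2 and 1 after injury. ADRA2B, the remaining alpha-2 gene, had 1 UMI in all nuclei. The low counts of these single-exon genes say nothing about receptor protein.

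ADRB1, the beta-1 receptor, was highest in microglia/macrophage-like nuclei. It was 23.3 CPM in intact cervical (19.9 to 27.1), 16.6 in thoracic (14.3 to 19.2) and 26.5 in lumbar cord (22.9 to 30.5). It was 33.5 (30.7 to 36.5), 26.8 (24.6 to 29.1), 29.4 (27.3 to 31.6) and 31.7 (25.5 to 38.9) at 7, 14 and 30 dpi and 6 mpi. The injured libraries lay above the intact ones, though at 14 dpi and in intact lumbar cord the levels were nearly equal (26.8 and 26.5 CPM). Over intact lumbar cord the log2 ratios came to 0.34 (0.10 to 0.58), 0.02 (−0.22 to 0.26), 0.15 (−0.08 to 0.39) and 0.26 (−0.12 to 0.63), so that counting error alone covers the difference at all times but 7 dpi.

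Of the 2 receptors with at least 50 UMIs in microglia/macrophage-like nuclei, ADRB1 lay above and ADRA1A below the intact range, where 12.6% of 14723 genes lay above and 12.5% below. The position of ADRB1 rested on the choice of nuclei at 6 mpi. The cluster led by GPNMB and CHIT1, with 1200 of its 1415 nuclei from 6 mpi, held 11.0 CPM of ADRB1 there (36 UMIs), and with it counted among the microglia/macrophage-like nuclei the 6 mpi level was 20.6 CPM, inside the intact range. The range was also reached when no doublets were removed, when nuclei under 2000 UMIs were left out and when nuclei were thinned. Microglia/macrophage-like clusters followed the libraries, with cluster 0 holding nearly all intact nuclei, cluster 4 mostly those of 7 dpi and 6 mpi, cluster 3 those of 14 dpi and cluster 8 those of 30 dpi. Their own markers changed too, with CSF1R, P2RY12 and CX3CR1, genes of homeostatic microglia, below the intact range and CD74, DOCK8 and SPI1 above it. Of the markers of other classes in these nuclei, 6 of 8 astrocyte markers lay below the intact range (734 to 1052 CPM summed in intact, 475 to 897 in injured libraries), and the endothelial markers PECAM1 and FLT1 lay above it. Their part in the ADRB1 result was not tested.

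**Figure D5:**
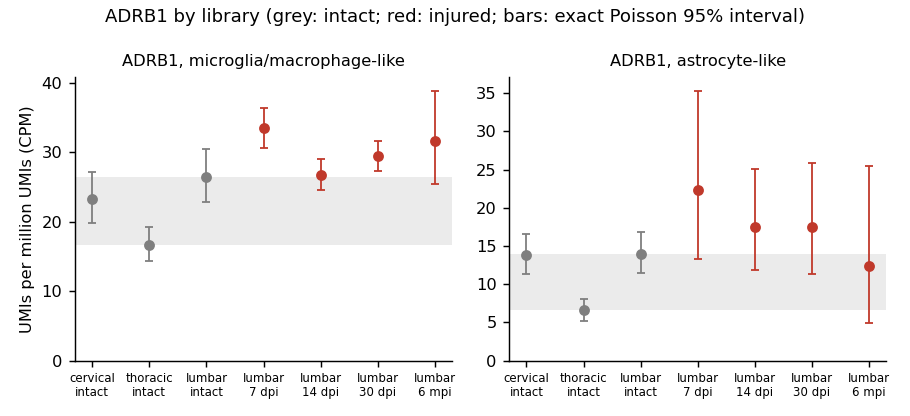
ADRB1 in microglia/macrophage-like and astrocyte-like nuclei, in CPM (vertical axes, from 0) by library, intact in grey and injured lumbar in red, with exact Poisson 95% intervals and a grey band over the intact range. In microglia/macrophage-like nuclei ADRB1 lies above the band by little at 14 dpi (26.8 against 26.5), and in astrocyte-like nuclei the 6 mpi value (12.4) lies within it.

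Astrocyte-like nuclei also carried ADRB1, at 13.8, 6.56 and 13.9 CPM in the intact segments and 22.4, 17.6, 17.5 and 12.4 CPM after injury, where 6 mpi lay within the intact range. None of the 3 receptors with at least 50 UMIs in this class lay outside the intact range in all 4 injured libraries, where 7.36% of 13633 genes lay below and 9.28% above. OPC-like nuclei held 9.09, 4.87 and 7.50 CPM of ADRB1 intact and 8.32, 7.05, 5.82 and 2.33 CPM after injury, from 192 UMIs. Neuron-like nuclei held 0.808 to 1.39 CPM intact and 0.492 to 1.44 CPM injured, and oligodendrocyte-like nuclei 0.0686 to 0.220 and 0.109 to 0.336 CPM. The level in astrocyte-like nuclei was 39.0% to 66.8% of that in microglia/macrophage-like nuclei, while microglia/macrophage markers reached a median of 0.404% to 2.85%. In oligodendrocyte-like nuclei ADRA1A and ADRA1B were the receptors with at least 50 UMIs and neither lay outside the intact range in all 4 injured libraries, where 9.72% of 16142 genes lay below and 13.9% above.

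ADRB3, the beta-3 receptor, was measured for reference and was a rare neuronal transcript. It had 114 UMIs, 112 of them in neuron-like nuclei, at 0.107 to 0.397 CPM intact and 0.202 to 0.545 CPM injured. The groups overlapped.

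Genes that act with the receptors were read from lists and described by how many lay outside the intact range. In neuron-like nuclei, 3 of 8 genes of catecholamine synthesis, transport and breakdown lay below and none above, where 10.5% of all genes lay below and 9.6% above. SLC22A3, a transporter that takes up noradrenaline outside nerve terminals, was 28.3, 32.2 and 24.7 CPM in the intact segments and 13.0, 17.9, 15.8 and 19.0 CPM after injury. In OPC-like nuclei SLC22A3 was 444 to 484 CPM intact and 270 to 358 CPM injured. OPC markers in neuron-like nuclei reached a median of 4.14% to 6.13% of their OPC-like level. SLC22A3 was also among the leading genes of a neuron-like cluster of 384 nuclei. The part of OPC RNA in its neuron-like values was not tested. MAOB, a monoamine-degrading enzyme, was 77.0 to 82.7 CPM intact and 61.3 to 63.5 CPM injured, and SLC18A2, the vesicular monoamine transporter, also lay below. The list's median log2 difference was −0.19 against 0.01 over all 19376 genes.

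On the Gq side, which follows the alpha-1 receptors, 3 of 13 genes lay above and 3 below in neuron-like nuclei, and the counts of this and the next lists stand beside 9.6% above and 10.5% below over all genes. PLCB2, a phospholipase C, was 2.95 to 4.48 CPM intact and 4.70 to 12 CPM injured, and ITPR2, an IP3 receptor that releases calcium, 68.4 to 107 and 113 to 151 CPM. Both genes were higher in microglia/macrophage-like nuclei (PLCB2 at 249 to 901 CPM, ITPR2 at 1283 to 1817), whose markers also summed higher in injured neuron-like nuclei (106 to 151 CPM against 72.5 to 101 intact), and the part of such RNA in these values was not tested. The third gene above was GNA14 (1.57 to 2.51 CPM intact, 2.63 to 4.49 injured), and PLCB1, PLCB4 and GNA11 lay below. GNA14 was higher in astrocyte-like nuclei, at 61.6 to 136 CPM intact and 300 to 663 CPM injured. Astrocyte markers in neuron-like nuclei reached a median of 1.65% to 1.79% of their astrocyte-like level intact and 0.686% to 1.43% injured. The part of astrocyte RNA in the neuron-like GNA14 values was not tested. On the Gi/o side, 3 of 10 genes lay below and none above, which were GNAO1 and the potassium channel genes KCNJ6 (330.2 to 377 CPM intact, 231 to 274 injured) and KCNJ9 (3.97 to 5.62 intact, 1.58 to 3.67 injured). On the Gs side 1 of 12, PDE4D, lay above and 2 below, the adenylyl cyclases ADCY5 (80.3 to 84.9 intact, 58.4 to 71.7 injured) and ADCY1 (215 to 224 intact, 158 to 205 injured). Of 9 desensitisation genes, GRK5, a receptor kinase, lay below (150.3 to 158 intact, 134 to 148 injured).

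In OPC-like nuclei the counts of listed genes outside the intact range stand beside 8.3% of all 12798 genes above and 6.63% below. On the Gq side 1 of 12 genes, GNAQ, lay above (414 to 426 CPM intact, 429 to 509 injured) and 1, PLCB4, below (443 to 472 intact, 281 to 355 injured). Of 5 catecholamine genes, SLC22A3 lay below (444 to 484 CPM intact, 270 to 358 injured) and SLC29A4, another monoamine transporter, above (6.94 to 7.50 intact, 10.5 to 15.1 injured). Of 7 desensitisation genes, GRK5 and ARRB2 lay above and RGS7 below, of 9 Gi/o genes GNAZ lay above, and none of the 12 Gs genes lay outside it in all 4 injured libraries. These genes, and in neuron-like nuclei SLC18A2, GNA14, PLCB1, PLCB4, GNA11, GNAO1 and PDE4D, were named after their values were seen. In astrocyte-like nuclei, where 9.28% of all genes lay above and 7.36% below, 5 of 12 Gq genes lay above (GNAQ, GNA14, PLCB2, PRKCA and PRKCB) and 1, ITPR1, below. PLCB2 and PRKCB were higher in microglia/macrophage-like nuclei (249 to 901 and 751 to 961 CPM) than in astrocyte-like nuclei (2.42 to 15.8 and 5.61 to 26.5 CPM). The microglia/macrophage markers summed to 29.5 to 109 CPM in intact and 84.7 to 259.7 CPM in injured astrocyte-like nuclei, with 2 of 9, C3 and CD74, above the intact range. The study also read C3 as a gene of an astrocyte state, so C3 does not mark microglial RNA alone. The part of microglial RNA in these counts was not tested. Of the other lists in astrocyte-like nuclei, 1 of 5 catecholamine genes (MAOB) and 1 of 8 desensitisation genes (ARRB2) lay above, 1 of 12 Gs genes lay above (ADCY1) and 1 below (PRKACB), and 0 of 8 Gi/o genes lay outside the range. In microglia/macrophage-like nuclei, where 12.6% lay above and 12.5% below, 1 of 12 Gq genes lay above (ITPR1) and 5 below (PLCB1, PLCB4, ITPR2, PRKCA and PRKCB). There 1 of 4 catecholamine genes (SLC29A4) and 1 of 9 Gi/o genes (CACNA1A) lay above, 2 of 12 Gs genes (PRKACB and PDE4B) lay below, and of 9 desensitisation genes GRK6 lay above and GRK5 below. In oligodendrocyte-like nuclei, 13.9% of all genes lay above and 9.72% below. There 3 of 10 Gi/o genes lay above (GNAI2, GNAO1 and KCNJ9) and 1 below (GNAI1), and 1 of 13 Gq genes lay above (PRKCB). Of 12 Gs genes PDE4D lay above and GNAL below. Of 8 desensitisation genes RGS2 lay above and GRK5 below, and of 5 catecholamine genes SLC22A3 lay below. In astrocyte-like, microglia/macrophage-like and oligodendrocyte-like nuclei the genes were also named after their values were seen.

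Likeness was measured as the Pearson correlation of log2(CPM + 1) over 42 sums of a class in a library, among 14445 genes. ADRA1A was most like PTPRG (r = 0.97), BRINP1 (0.97) and FAT3 (0.97), and ADRA1B most like NPFFR2 (0.96), CELF4 (0.96) and KCNA4 (0.95). ADRA1D was most like TPH2 (0.95), SYT7 (0.94) and CAMK1G (0.93), and ADRB1 most like NHSL1 (0.91), CTSC (0.91) and RAB31 (0.90). The alpha-1 receptors were less like each other, with r = 0.56 between ADRA1A and ADRA1B, 0.26 between ADRA1A and ADRA1D and 0.81 between ADRA1B and ADRA1D. These are descriptions without a test, since the sums share libraries, depth and the large differences between classes.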

How the data were processed

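Single-nucleus RNA libraries (10x Chromium v3) of 7 rhesus monkey spinal cord samples, 1 per group, were analysed from the raw UMI counts per gene and barcode that the authors deposited as filtered matrices. Per the submitters' processing notes these were made with Cell Ranger 6.0.0, and the matrices name Mmul_10 genes. Whether intronic reads were counted and the annotation release were not given in the sources used here. By the study's methods, nuclei over 500 genes and 1000 UMIs, under 10% mitochondrial and 5% hemoglobin UMIs were kept. The 5% of nuclei with the highest Scrublet score in each library were removed as doublets. Counts were scaled to 10000 per nucleus, and 2000 variable genes without adrenergic genes, 30 principal components, 20 neighbours and Leiden clustering at resolution 1 gave 30 clusters (Python 3.11.15, scanpy 1.11.5, leidenalg 0.10.2). Libraries were not integrated. A cluster took the class of the marker list with the highest score unless fewer than 3 markers were detected, another class led, scored over 0.5 of it, or scored over 0.3 of it while at least 5 of 10 top genes peaked in that other class, or UMI counts were low.

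UMIs were summed per class and library, since nuclei are not replicates, and given per 1000000 UMIs (CPM) with exact Poisson intervals (scipy 1.17.1). Shares have exact Clopper-Pearson intervals and ratios exact conditional binomial ones. Where a count was 0, the limit given is 3 counts. With 1 library per group there was no test, and sampling, animal and preparation cannot be separated. A gene with at least 50 UMIs in a class was counted as below or above when its level in all 4 injured libraries lay below or above all 3 intact ones. This count was tried on simulated data that held set changes and counting error only. The simulated libraries had no differences between animals, segments or preparations, so they cannot show how often such differences give a count. The 6 receptors were measured in every class, though not every level is given in the text. Of each pathway list, the 2 genes outside the intact range with the largest median log2 ratio in neuron-like nuclei were named with values (others are marked as named after their values were seen), and for likeness the 3 best correlated genes with at least 200 UMIs. Sums of under 50 nuclei were left out of likeness. The receptors and lists were chosen with earlier results of these data known. Other filters, groupings, scalings and references were tried, as were alternatives chosen after seeing the data. A further gene of the lists is not reported here.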

Additional observations from a re-analysis of the deposited data

How the results depend on the processing

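The values describe 7 libraries from few animals. Counting depth limits, among others, the alpha-2 receptors, the ependymal-like and T cell-like nuclei, the OPC-like and astrocyte-like nuclei of injured cord and the 6 mpi library. No paired analysis was possible because each group is 1 library and no number pairs libraries across groups. ADRA1A in OPC-like nuclei lay below the intact range under every alternative tried, with all 36 alternative log2 ratios between −1.72 and −1.10. Its ratio became −1.26 at 14 dpi with thinning, −1.26 at 7 dpi with nuclei named one by one and −1.26 with doublets kept, and at 30 dpi −1.37 at resolution 2 and −1.38 against the mean of the intact libraries. ADRA1B in neuron-like nuclei, with thinning, became 0.34 at 7 dpi, −0.51 at 30 dpi and −0.00085 at 6 mpi. ADRB1 in microglia/macrophage-like nuclei, against the mean of the intact libraries, became 0.60, 0.27 and 0.41 at 7, 14 and 30 dpi, and 0.42 at 30 dpi with nuclei named one by one. At 6 mpi it became −0.36 with the GPNMB-led cluster included (an alternative chosen after seeing the data), −0.32 with doublets kept and −0.38 above 2000 UMIs. The number of receptors above the intact range in microglia/macrophage-like nuclei was then 0 with that cluster and 0 with doublets kept, instead of 1. ADRA1A in neuron-like nuclei at 6 mpi became 0.011 against the mean of the intact libraries. Leaving out each intact library in turn left 1 to 2 receptors below the range in neuron-like nuclei, ADRA1A joining ADRA1B without the thoracic library. With fewer intact libraries, at least as many genes of any kind lie outside the range. The share of all genes under the alternatives is not given here. The counts of receptors under them are therefore not read as a result about the receptors. With nuclei called by their own transmitter genes the lowest and highest folds became 1.21 and 2.42 for ADRA1A and 1.08 and 1.43 for ADRA1B. The causes of these shifts were not tested. Leaving out OPC-like clusters led by MKI67 or TOP2A gave no value, as there were none, and nuclei with a UMI of either were left out instead, chosen after seeing the data. Of 104 ratios of these 3 receptors under alternatives, 89 stayed within their counting interval.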
